A study of Mus musculus with 68 samples.

Results

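The interferon-stimulated genes described here are 39 mouse genes of 24291 gene names on the arrays, taken as a named list. They were represented by 66 probes. A gene with several probes was read from the brightest, by its mean over all 68 arrays. All 39 members had a named probe, and all passed the filter on dim genes in each compartment. The list holds 23 antiviral effectors, 5 transcription factors, 3 RNA sensors, 7 interferon-inducible GTPases and 1 feedback inhibitor.

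Interferons are secreted proteins that cells release after sensing viral or self nucleic acid, or, for interferon gamma, after activation of T and NK cells. Type I and type III interferons signal through receptor-bound kinases to a complex that holds Stat2 and Irf9, which binds a DNA element called the interferon-stimulated response element (ISRE). Interferon gamma acts through another DNA element, the gamma-activated site (GAS). In the lung these genes are part of the first defence against respiratory virus, and most cell types there can express them.

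The study measured RNA of mouse lung tissue, cut by laser into alveolar septa and vessels, on 1-colour Agilent arrays (34 per compartment, 14 groups in all). After 3 months there were, per compartment, 5 wild-type arrays in room air, 5 wild-type arrays with cigarette smoke, 4 arrays of animals labelled Fgf10 knock-down (Fgf10+/-, carrying 1 intact copy) in room air and 5 of such animals with smoke. A longer arm ran for 8 months and then 1 week on or off doxycycline, and gave 5 control arrays in room air, 5 control arrays with smoke and 5 with smoke labelled as overexpressing Fgf10, a growth factor of lung mesenchyme. The labels name neither the strain, the age of the animals nor the promoter behind the overexpression, do not say which of the 8-month controls received doxycycline, and do not tie septa and vessel arrays to animals; each array was counted as 1 replicate. Every group shares the laser cutting and an RNA amplification before labelling.

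Values are deposited log2 intensities, ranging from 3.27 to 15.98. Percentile 40 of an array lay near 5.32, and members below it were close to the dim end of the scale. Levels of different genes come from different probes and were not set against each other. For Fgf10 itself, the septa arrays labelled knock-down in room air lay between 7.94 and 9.21 and wild-type room air between 7.16 and 8.69. With smoke, the septa arrays labelled knock-down ran from 3.77 over a median of 4.78 to 8.54 and wild type from 7.08 over 7.95 to 10.19. In vessel with smoke the medians were 4.58 and 7.26, and the ranges overlapped. In smoke-exposed septa at 8 months, the arrays labelled overexpressing lay between 6.88 and 9.22 and the controls between 7.81 and 10.83. In smoke-exposed vessel at 8 months, the means were 5.47 with the overexpression label and 7.31 in the controls. In room air vessel at 3 months they were 5.51 with the knock-down label and 5.24 in wild type. Where the probe sits relative to the change in the gene is not stated, so these values do not check the labels. Smooth muscle markers were lower and most alveolar type 1 markers higher in septa, as given below with the other cell types. Of the arrays, 3 stood apart: the knock-down smoke septa arrays 1 and 5 and the knock-down smoke vessel array 5 had median correlations of 0.24, -0.02 and 0.46 with the other arrays of their compartment, against at least 0.69 for all others. Results that rest on them are given with and without them. For wild-type smoke septa array 4 the title and the characteristics disagree, the latter saying knock-down, and the title was followed. The groups were uneven in Xist, an RNA of the inactive X chromosome: its signal was above 10 on 3 of 5 arrays labelled knock-down with smoke and on 1 of 5 of wild type with smoke, in each compartment.

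RefSeq promoter windows (250 bases before to 50 after a gene's start, build GRCm38.p6) were found for 29 of the 39 members. The ISRE core, spelled GAAANNGAAA and searched on either strand, was found for 17 of these 29 members (58.6%), against 3.99% of 27025 genes with a window. The GAS core, spelled TTCNNNGAA, was found for 10 of the 29 (34.5%), against 9.55% of those genes. A gene with several windows counted if any of them held a match. Matches of the ISRE core may overlap each other where 3 or more copies of GAAA follow one another. Windows of 5 members held both motifs and those of 7 members (Cmpk2, Ifi44, Irf7, Irf9, Oasl1, Oasl2 and Xaf1) neither. The stretches below are a selection. Shown are genes called between compartments (Gbp7, Oas3, Stat2 and Irgm1). Also shown are genes with one of the smallest p of the members in a comparison of conditions (Ifit3, Gbp3, Rsad2 and Igtp). Isg15 and Ifit1 were added because their stretches hold more than 1 match. The stretches of Bst2 and of Oas1a, also among those smallest p, hold 2 matches each and are not shown. Capitals mark the ISRE core or its reverse complement, and each is printed 5′ to 3′ on the strand of its gene.
Isg15, chr4:156200850-156200909, minus strand: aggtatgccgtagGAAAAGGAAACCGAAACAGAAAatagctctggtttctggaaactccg
Ifit1, chr19:34640779-34640838, plus strand: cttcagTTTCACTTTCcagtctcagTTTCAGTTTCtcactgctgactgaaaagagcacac
Ifit3, chr19:34583397-34583426, plus strand: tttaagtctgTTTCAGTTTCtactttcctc
Rsad2, chr12:26456538-26456597, minus strand: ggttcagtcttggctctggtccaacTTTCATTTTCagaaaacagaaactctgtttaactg
Oas3, chr5:120777700-120777759, minus strand: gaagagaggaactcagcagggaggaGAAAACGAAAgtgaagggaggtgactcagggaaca
Stat2, chr10:128270251-128270310, plus strand: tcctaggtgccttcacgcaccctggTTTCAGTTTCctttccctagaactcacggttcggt
Gbp7, chr3:142530258-142530317, plus strand: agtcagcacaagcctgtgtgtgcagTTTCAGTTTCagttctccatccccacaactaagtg
Gbp3, chr3:142559995-142560024, plus strand: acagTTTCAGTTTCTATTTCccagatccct
Irgm1, chr11:48871421-48871469, minus strand: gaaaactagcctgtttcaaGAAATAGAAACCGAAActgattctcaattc
Igtp, chr11:58199497-58199555, plus strand: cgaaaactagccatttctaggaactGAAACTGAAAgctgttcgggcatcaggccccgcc
The 10-base match TTTCAGTTTC was shared by Ifit1, Ifit3, Stat2, Gbp7 and Gbp3, and the stretch of Igtp holds its reverse complement. The unshown stretches of Oas1a and Bst2 hold that reverse complement as well. The stretches of Ifit3 and Gbp3 lie before the start used for the window but reach into the annotated span of the gene. Another transcript starts earlier there, so only 30 bases are shown. The other stretches shown lie outside the annotated span of their gene. A match describes the letters of the window and does not show that a factor binds there.

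The largest set of called differences lay between the compartments. Over all 7 groups, 10 of the 39 members were higher in septa than in vessel and none was lower (limma, two-sided, adjusted p under 0.05 over 23864 genes), where 11% of all genes were called higher in septa, so 25.6% of the members stand beside that share. The median change of the members was 0.44 log2 units, against -0.01 over all genes tested. At an unadjusted p under 0.05, 14 members were higher in septa and 2 in vessel, 41% of the list beside 31.2% of all genes. Leaving out replicate number 2 in every group left 2 members called, Ifit2 and Gbp7. Counted in either direction, that is 5.13% beside 12.7% of genes. Leaving out the 3 low-correlation arrays gave 11 members higher in septa, 28.2% beside 18.6% of genes. It gave 1 lower, Irf8, 2.56% beside 15% of genes. The share called in either direction was then 30.8% beside 33.6% of genes, at the background, against 25.6% beside 19.9% with all arrays.

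Ifit2, an RNA-binding antiviral protein, had the smallest p. On the 34 septa arrays it ran from 4.14 over a median of 6.82 to 9.07, and on the 34 vessel arrays from 4.05 over 5.23 to 10.01. It exceeded percentile 40 on 29 of 34 septa arrays and on 16 of 34 vessel arrays, and the ranges overlapped. The change was 1.43 ± 0.28 (SE), with an adjusted p of 0.000101 by limma. Ifit1, its neighbour on chromosome 19, differed by 0.42 ± 0.32 (adjusted p 0.40 by limma), and Ifit3 by 0.44 ± 0.30 (adjusted p 0.33).

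Gbp7, a guanylate-binding GTPase of defence against intracellular microbes, showed the largest difference among the members. Its septa values ran from 3.90 over a median of 10.05 to 11.73 and its vessel values from 4.17 over 7.91 to 11.76. The change was 1.93 ± 0.44 (adjusted p 0.00087 by limma), and the mean was higher in septa in 7 of 7 groups. Gbp4 ran from 4.67 over 9.70 to 13.84 in septa and from 4.69 over 8.73 to 11.58 in vessel. Its change was 1.34 ± 0.41 (adjusted p 0.013 by limma). Irgm1, an immunity-related GTPase that takes part in autophagy of microbes, differed by 0.81 ± 0.29 (adjusted p 0.040), and by 0.63 with an adjusted p of 0.069 by limma without the low-correlation arrays. Of the 7 GTPases 3 were called, and Gbp2, Gbp3, Gbp6 and Igtp were not. Igtp passed without the low-correlation arrays (0.69, adjusted p 0.022 by limma).

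Oas3, which makes the 2-5A messenger that switches on RNase L, ran from 4.06 over 7.45 to 10.13 in septa and from 3.55 over 4.90 to 9.78 in vessel. It was above percentile 40 on 28 of 34 septa arrays and on 14 of 34 vessel arrays, so most vessel values were at the dim end. The change was 1.48 ± 0.38 (adjusted p 0.0029 by limma). Cmpk2, a mitochondrial nucleotide kinase, was 1.62 ± 0.44 higher in septa (adjusted p 0.0050 by limma) and Eif2ak2, the kinase PKR that halts translation on sensing double-stranded RNA, 1.51 ± 0.45 higher (adjusted p 0.010). Ifi35 and Xaf1 were higher by 0.70 ± 0.23 and 0.94 ± 0.32. In total 6 of the 23 effectors were called.

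Among the transcription factors 1 of 5 was called. Stat2, the partner of Irf9 in the ISRE-binding complex, ran from 7.36 over 10.21 to 11.28 in septa and from 4.51 over 9.64 to 10.59 in vessel, a change of 0.98 ± 0.28 (adjusted p 0.0091 by limma). Irf8, a factor of monocytes, dendritic cells and B cells, stood on the other side: 4.19 over 8.996 to 10.57 in septa and 5.65 over 10.07 to 12.71 in vessel. Its change of -0.91 ± 0.36 missed the threshold (adjusted p 0.068 by limma) and passed without the low-correlation arrays (-0.88, adjusted p 0.045). Irf1, a factor shared by the responses to interferon gamma and type I interferon, differed by 0.66 ± 0.29 (adjusted p 0.098), and by 0.86 (adjusted p 3.5e-05 by limma) without those arrays. None of the 3 RNA sensors was called, and the feedback inhibitor Usp18 differed by 0.75 ± 0.30 (adjusted p 0.066 by limma).

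In 9 members the septa mean was higher in 7 of 7 groups: Ifit1, Ifit2, Oas2, Eif2ak2, Cmpk2, Irf7, Stat2, Gbp4 and Gbp7. Bst2, also called tetherin, which holds budding virus at the cell surface, was higher in septa in 0 of 7 groups (-0.51 ± 0.24, adjusted p 0.13 by limma). Probes of 1 gene did not always give like values. The second probe of Stat2 differed by -0.51 between septa and vessel and that of Ifi35 by -0.01, while the other probes of Irgm1 differed by 0.23, 0.16 and -0.19. Those calls therefore rest on the brightest probe.

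The remaining members differed between the compartments by -0.64 (Oasl1) to 0.78 (Rsad2), and none was called. Isg15, the ubiquitin-like protein that Usp18 removes, ran from 3.95 over 9.04 to 10.47 in septa and from 6.01 over 8.62 to 11.81 in vessel (-0.08 ± 0.35, adjusted p 0.91 by limma). Ddx58, the sensor RIG-I of short viral RNA, ran from 6.23 over 10.18 to 15.90 and from 7.17 over 9.71 to 11.67 (0.48 ± 0.32, adjusted p 0.31). Irf7, the factor that amplifies type I interferon production, ran from 5.67 over 9.49 to 12.94 and from 5.33 over 8.96 to 11.91 (0.64 ± 0.36, adjusted p 0.22). The ranges of the compartments overlapped for each. Several members were dim on many arrays: Gbp6 exceeded percentile 40 on 19 of 34 septa and 14 of 34 vessel arrays, Mx2 on 19 and 17, Oasl1 on 18 and 22, Ifi44 on 23 and 20, and Mx1 on 21 and 25. Changes of such genes are measured near the lower end of the scale, which limits their size.

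**Figure D1:**
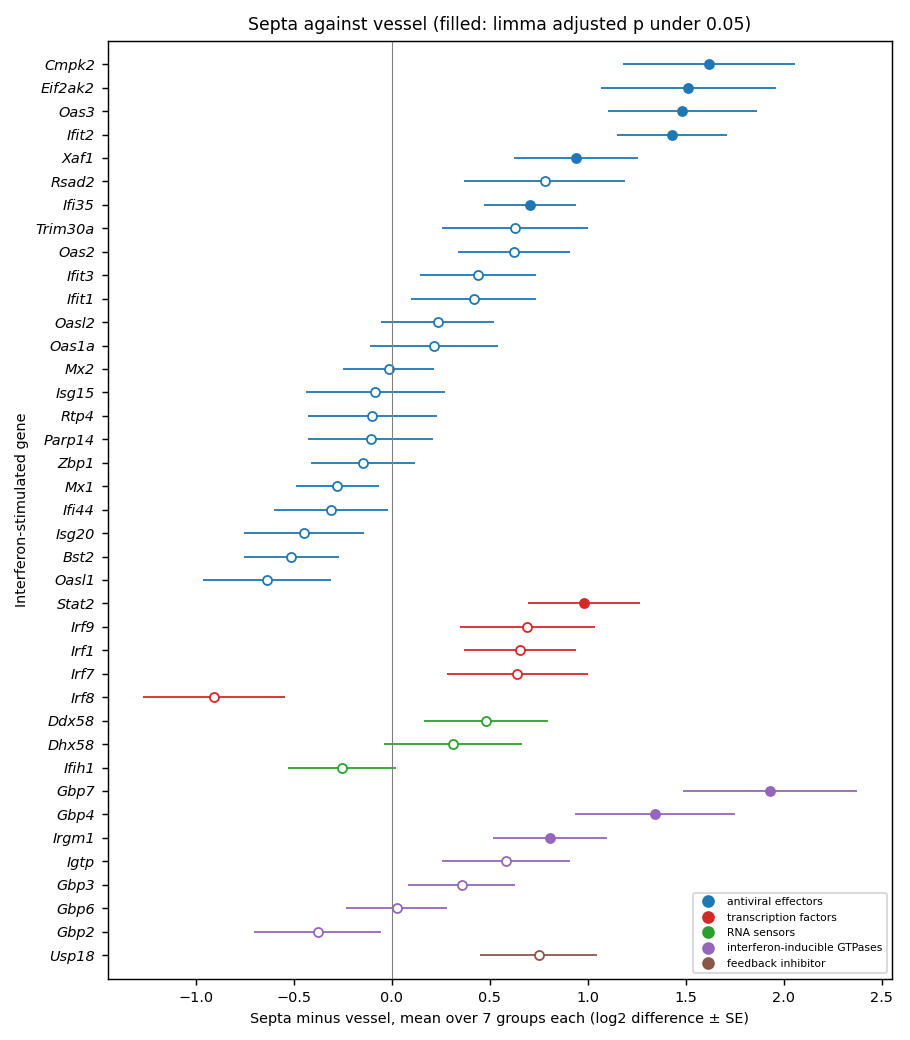
Log2 change of septa over vessel for each of the 39 members, grouped by role, with bars for the SE of the 14-group fit and filled points for an adjusted p under 0.05. The 10 filled points all lie above 0, led by Gbp7 at 1.93, and Irf8 lies lowest at -0.91.

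Genes around the members in the pathway were counted from a list of their own. Of 42 other interferon-stimulated genes tested, 8 were higher in septa and 1 lower (19% and 2.38%, beside 11% and 8.91% of all genes). Without the low-correlation arrays 11 were higher and 4 lower of 41 (26.8% and 9.76%, beside 18.6% and 15%). Slfn1, a member of the Schlafen family of lymphoid and myeloid cells, was 3.02 ± 0.40 higher (adjusted p 3.3e-08 by limma), and Irgm2 1.86 ± 0.37 higher (adjusted p 0.00014). Ifi205, of the DNA-binding p200 family, was lower in septa (-2.14 ± 0.29, adjusted p 7.3e-08). The adaptor Sting1 and the kinase Tbk1, which carry the signal from DNA sensing, were higher by 0.70 and 0.87, and Pias1, a SUMO ligase, by 1.24. Irf5 was lower (-0.85, adjusted p 0.044 by limma, 0.063 without the low-correlation arrays, and 0.39 by the mean of all its probes). None of the 10 interferon genes and none of the 9 receptors and kinases tested were called with all arrays. Without the low-correlation arrays the kinase Jak1 (1.05, adjusted p 2.0e-06 by limma) and the receptor chains Ifngr2 (1.03) and Ifnlr1 (1.04) were higher in septa, and Ifngr1 (-0.30) and the interferon Ifnl3 (-0.75) lower.

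Cell type markers differed between the compartments together with these genes. All 4 smooth muscle markers were lower in septa, among them Cnn1 (-6.14) and Myh11 (-3.97), as were 3 of 3 fibroblast markers. Higher in septa were 3 of 4 markers of alveolar type 1 cells, 1 of 4 of alveolar type 2 cells (Lamp3, 1.38), 1 of 5 of capillary endothelium, 5 of 7 of neutrophils and 3 of 7 of T and NK cells. Of 8 alveolar macrophage markers 4 were higher and 2 lower, and of 7 monocyte and interstitial macrophage markers 2 were higher and 3 lower. Among plasmacytoid dendritic cell markers only Ly6d was called, lower in septa (-0.93), and among B cell markers only Cd79b, higher (1.18). Of 3 club cell markers, which belong to the airway, 2 were lower in septa, Scgb3a2 (-3.11) and Cyp2f2 (-3.19). In such tissue pieces, fewer cells of a type and less RNA per cell cannot be told apart, and the part of cell makeup in the difference was not tested.

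To put the list on 1 scale, the interferon level of an array was taken as the median, over the 39 members, of the value minus that gene's mean over the 34 arrays of the compartment. In septa it was 0.38 ± 0.18 (SD, n = 4) in knock-down room air, 0.30 ± 0.28 (n = 5) in the 8-month smoke controls and -0.03 ± 0.39 (n = 5) in wild-type room air. The knock-down smoke septa arrays had the lowest mean and the widest spread, -0.56 ± 0.99 (n = 5), running from -1.83 over -0.80 to 0.49. The lowest of them and the next lowest, at -1.83 and -1.05, are the arrays of low correlation.

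In vessel the groups labelled knock-down lay highest and spread most. The level was 0.48 ± 0.83 (SD, n = 4) in room air and 0.34 ± 1.15 (n = 5) with smoke, against -0.15 ± 0.52 and -0.25 ± 0.44 (n = 5 each) in wild type. The arrays of 1 group went in opposite directions. Knock-down smoke vessel array 4 had a level of 1.79 with 39 of 39 members above their mean, and array 5 of the same group -1.18 with 12 of 39. Knock-down room air vessel arrays 4 and 1 followed at 1.24 and 1.07, and array 3 of that group lay at -0.50. The mean of the 7 monocyte and interstitial macrophage markers was 11.47 on knock-down smoke array 4, the highest of its group. It was 7.25 on array 5, the low-correlation array. There the means for T and NK cells (6.58) and capillary endothelium (9.78) were the lowest of the group as well, and that for alveolar type 1 cells (13.00) the highest. On array 4 the alveolar macrophage and T and NK cell means were not the highest of the group. The part of these cells in the level was not tested.

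**Figure D2:**
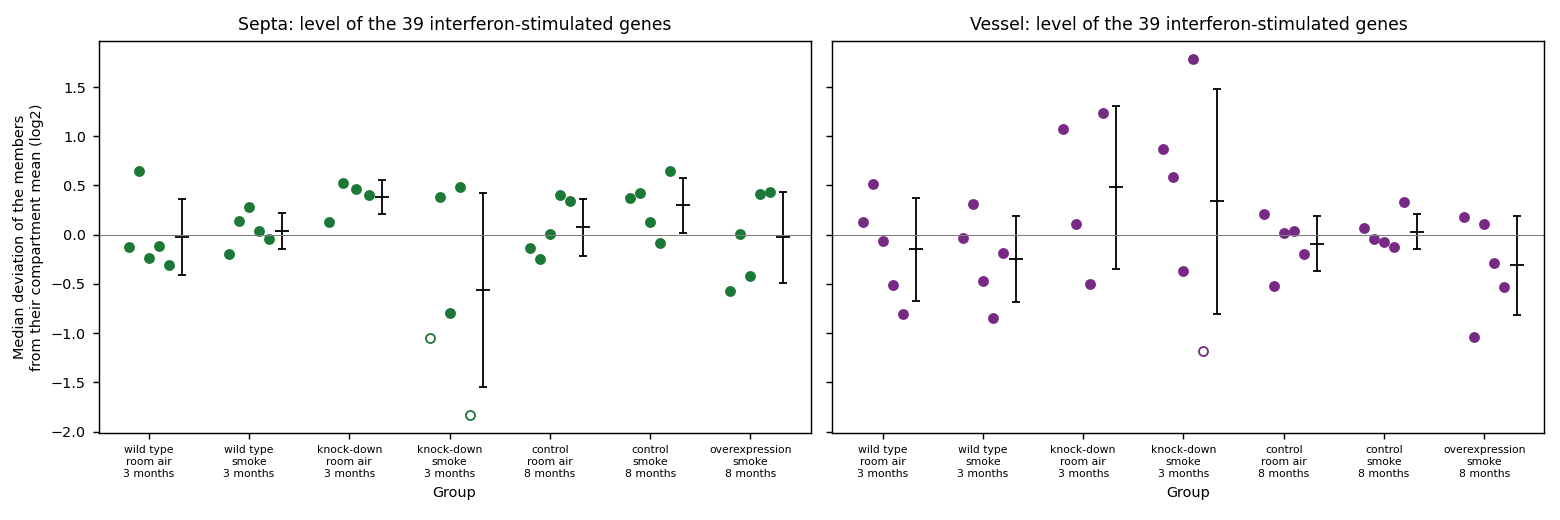
Interferon level (median deviation of the 39 members, log2 units) of every array by group, septa and vessel side by side. Open symbols mark the 3 low-correlation arrays and black bars the mean ± SD; the vessel arrays labelled knock-down with smoke spread from -1.18 to 1.79.

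**Figure D3:**
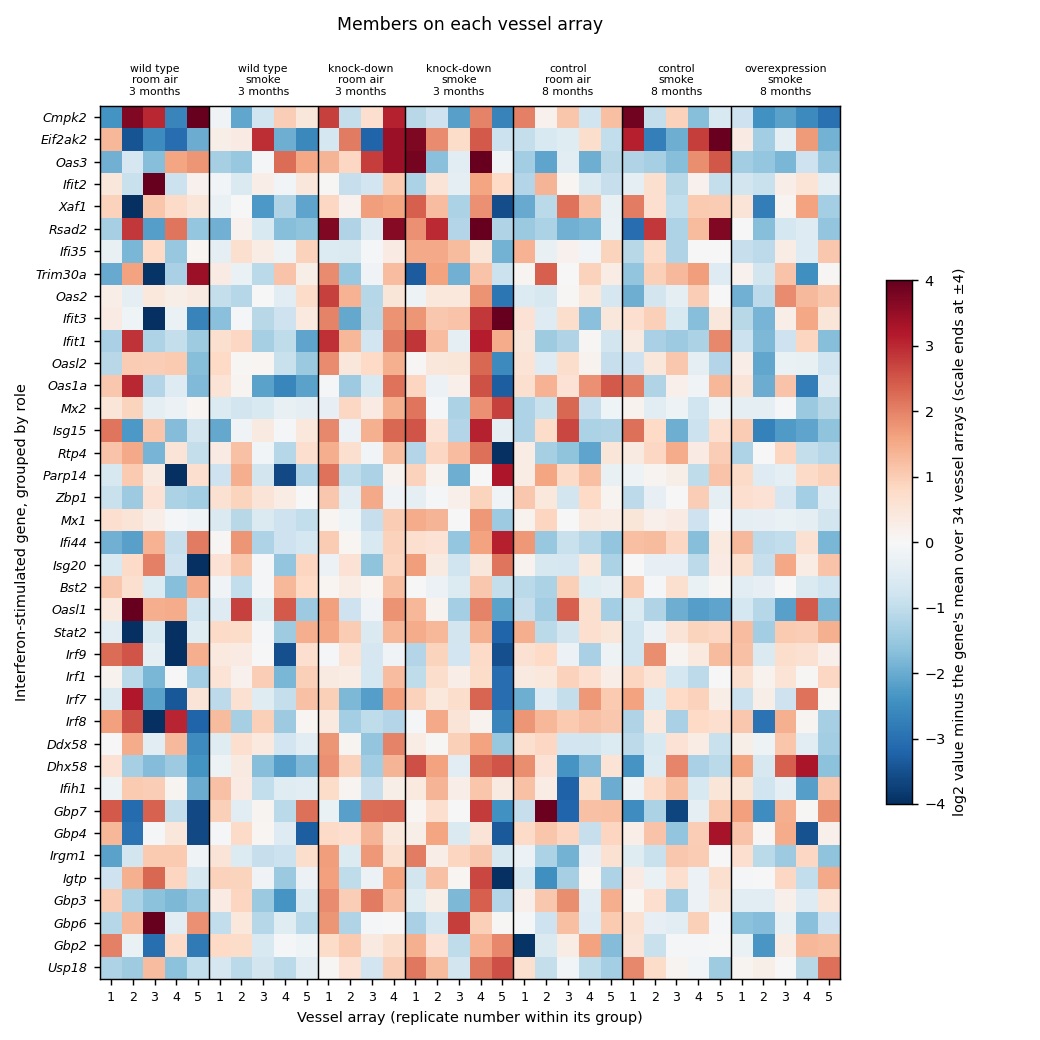
Deviation of each of the 39 members (rows) from its mean over the 34 vessel arrays, for each vessel array (columns), on a colour scale from -4 to 4 log2 units. On knock-down smoke array 4 all 39 members lie above their mean.

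The labelled knock-down under smoke was read in vessel by setting the 5 arrays with that label against the 5 wild-type smoke arrays. Here 2 of 39 members rose and none fell, Usp18 and Ifit3 (limma, adjusted p under 0.05 over 22268 genes). That is 5.13% of the members, beside 5.39% of all genes called, so the count of members stands at the background. With an unadjusted p under 0.05, 7 members were higher, 17.9% of the list beside 20.7% of all genes. The change was above 0 in 27 of 39 members, with a median of 0.49 against -0.10 over all genes. Without the low-correlation array these became 33 members and a median of 0.85, with 1 member called. With array weights 10 members were called, 25.6% beside 19.6% of genes, and without the low-correlation array 1, 2.56% beside 6.8%. A fit of the 10 compared arrays alone called 0 members and 0% of genes.

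Usp18, the protease that strips Isg15 from proteins and damps the type I interferon receptor, read 7.96, 7.14, 5.12, 7.97 and 8.45 on the 5 knock-down smoke vessel arrays. On the wild-type smoke arrays it read 5.20, 4.80, 5.13, 4.80 and 5.45. Most of these wild-type values lay under 5.32, at the dim end, and Usp18 exceeded percentile 40 on 19 of 34 vessel arrays. Knock-down array 3 lay among the wild-type values and the other 4 above all of them. The change was 2.25 ± 0.65 (adjusted p 0.037 by limma). Without the low-correlation array it was 1.97 with an adjusted p of 0.073, and the call held in 26 of 34 fits that each left out 1 array (changes of 1.97 to 2.81, adjusted p of 0.017 to 0.11 by limma). It was lost without knock-down smoke arrays 1, 2, 4 or 5 or wild-type smoke arrays 2, 3, 4 or 5.

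Ifit3, an antiviral scaffold protein with a stretch of the promoter shown above, read 12.16, 11.49, 11.54, 13.22 and 15.21 on the knock-down smoke arrays. The wild-type smoke arrays read 8.73, 10.36, 9.29, 9.57 and 10.79. All 5 knock-down values lay above all 5 wild-type values, and the highest came from the array of low correlation. The change was 2.98 ± 0.91 (adjusted p 0.048 by limma), and 2.36 with an adjusted p of 0.12 without that array. The call held in 14 of 34 fits that left out 1 array (adjusted p of 0.031 to 0.13 by limma). Ifit3b, a near-identical copy whose signal may be shared with Ifit3, rose by 2.58 ± 0.77 (adjusted p 0.045 by limma, and 0.099 without the array).

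Mx1, a dynamin-like GTPase that blocks influenza virus and that the reference annotates as a transcribed pseudogene, as it does Mx2, missed the threshold. It read 7.31, 7.18, 5.82, 7.55 and 4.36 on the knock-down smoke arrays and 5.24, 4.72, 5.25, 5.00 and 4.84 on the wild-type smoke arrays. The lowest value of all came from the low-correlation array, and the other 4 lay above all wild-type values. The change was 1.44 ± 0.45 (adjusted p 0.052 by limma), and 1.96 with an adjusted p of 0.0050 without that array, so the member called there is another one than in all arrays. Dhx58, the regulator LGP2 of the RNA sensors, read 8.94, 7.96, 5.94, 8.66 and 8.87 against 6.17, 6.72, 4.67, 4.16 and 4.60, a change of 2.81 ± 0.92 (adjusted p 0.067 by limma).

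By role, of the 23 effectors 17 had a change above 0 (median 0.97) and of the 3 sensors 3. Of the 7 GTPases 5 did, and of the 5 transcription factors 1 (median -0.24). These counts rest on the brightest probe. Of the 21 members with several probes, another probe had the opposite sign for Oasl1, Zbp1, Ifi35, Irf7, Irf8 and Ddx58. For Oasl1 the changes were -0.56 and 1.90. In the rest all probes of a gene shared a sign. With all arrays none of the 9 tested interferon genes and none of the 9 receptors and kinases was called. Without the low-correlation array Ifnb1, the gene of interferon beta, was higher (1.55, adjusted p 0.048 by limma). Ifnl3, of the type III interferons, was lower there (-2.86, adjusted p 0.015 by limma). With all arrays the changes were 1.07 (adjusted p 0.23) and -2.09 (adjusted p 0.10). On the knock-down smoke arrays Ifnb1 read 6.29, 5.13, 7.4, 6.83 and 4.02. On the wild-type smoke arrays it read 4.57, 4.61, 5.13, 5.09 and 4.91, all under 5.32, at the dim end. Ifnl3 read 8.59, 6.04, 5.81, 7.61 and 10.9 against 7.75, 7.42, 11.24, 11.72 and 11.26. The ranges overlapped for both genes. Cgas, the sensor of cytosolic DNA, fell by 2.81 on the log2 scale (adjusted p 0.0068 by limma, called in all 34 fits that left out 1 array). By the mean of all its probes the change was -1.36 with an adjusted p of 0.20, and in the fit of the compared arrays alone the adjusted p was 0.23. Markers of plasmacytoid dendritic cells, which make type I interferon, had a median change of -1.18 with 1 of 6 lower, and B cell markers -1.07 with 1 of 3 lower. The mean of the plasmacytoid markers ran from 7.29 to 8.43 on the knock-down smoke vessel arrays and from 8.29 to 9.55 on the wild-type smoke arrays. No marker of macrophages, monocytes, neutrophils or T and NK cells was called. The part of these cells, and of the unequal Xist signal, in the change was not tested beyond the alternatives given at the end.

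**Figure D4:**
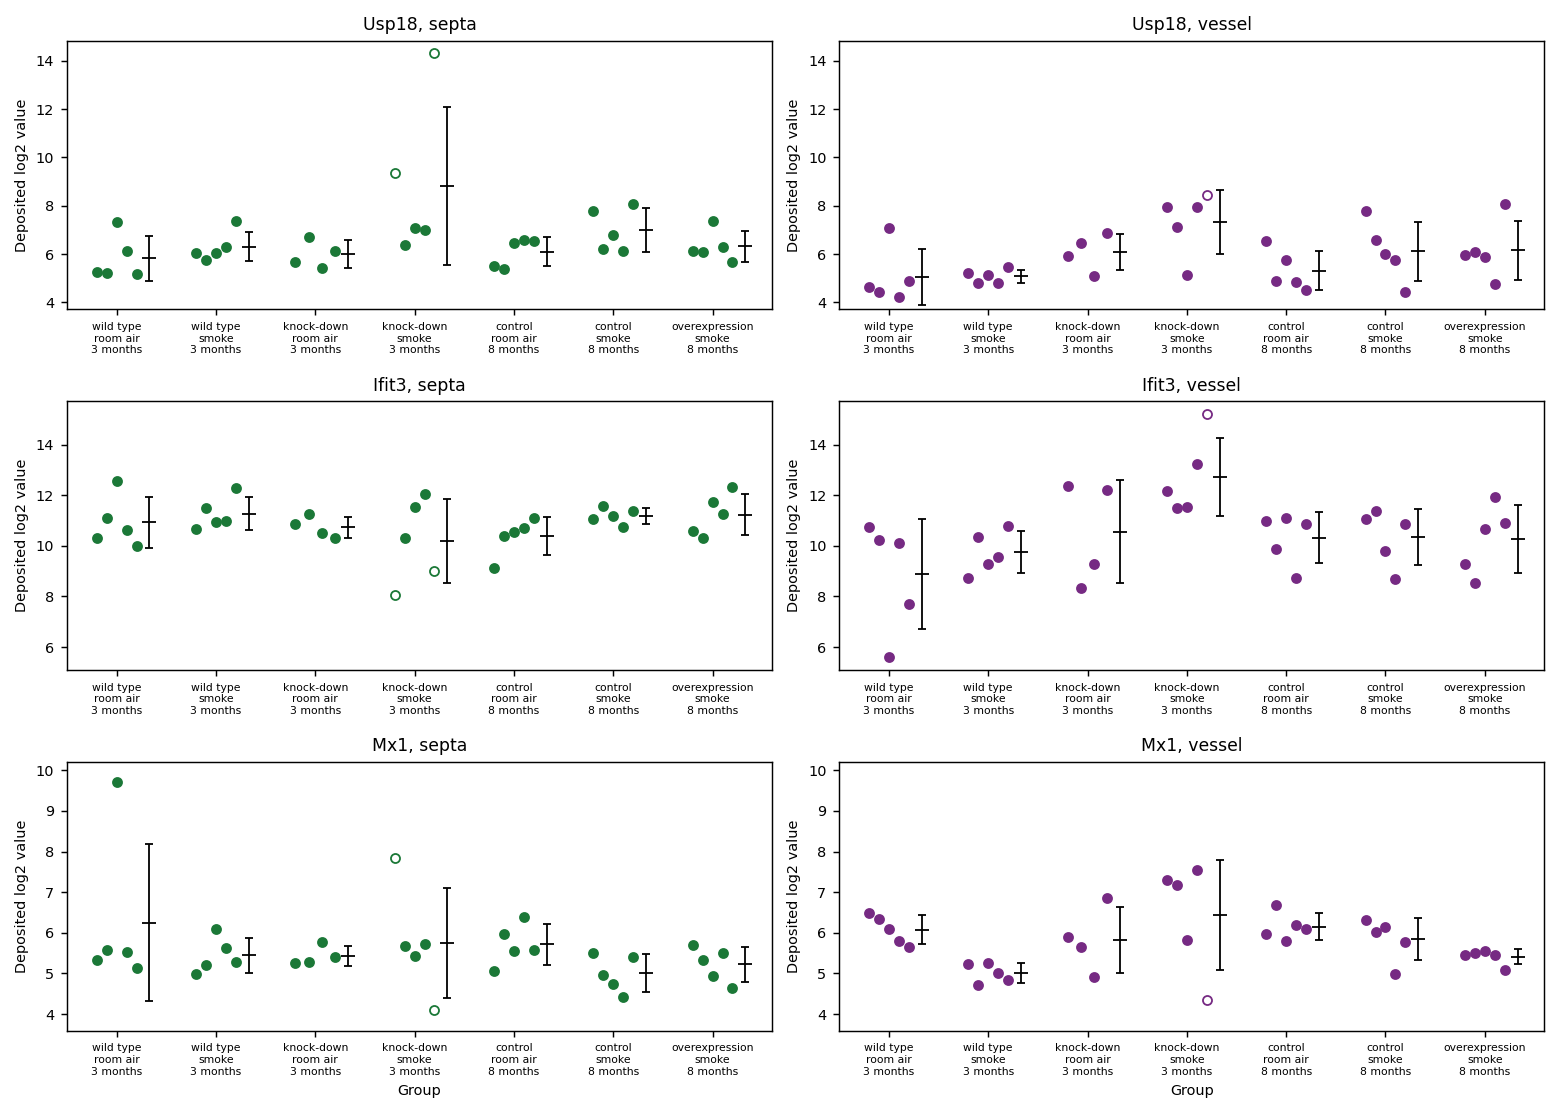
Log2 values of Usp18, Ifit3 and Mx1 on every array by group, with open symbols for the low-correlation arrays and black bars for the mean ± SD. In vessel, the Ifit3 values labelled knock-down with smoke lie between 11.49 and 15.21, above those of wild type with smoke at 8.73 to 10.79.

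Over the other vessel groups, Ifit3 averaged 8.88 ± 2.18 (SD, n = 5) in wild-type room air, 10.56 ± 2.04 (n = 4) in knock-down room air and 10.27 to 10.35 in the 8-month groups. Usp18 averaged 5.05 ± 1.17 in wild-type room air, 6.08 ± 0.76 in knock-down room air and 5.31 to 6.15 at 8 months.

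In septa the same comparison went the other way for most members, on arrays of which 2 stand apart. None of the 39 members passed the threshold, beside 3.05% of 21502 genes. Under an unadjusted p of 0.05, 3 members were higher and 8 lower, 28.2% of the list beside 28.7% of all genes. The median change was -0.75, against -0.16 over all genes. It was -0.14 without the low-correlation arrays, where 1 member was higher and 1 lower. Irf9, the DNA-binding subunit of the complex with Stat2, read 7.10, 10.24, 3.79, 10.57 and 4.63 on the knock-down smoke septa arrays and 9.74, 10.23, 10.84, 9.77 and 10.03 on the wild-type smoke arrays. Arrays 2 and 4 lay with wild type and arrays 1, 3 and 5 below all of them. The change was -2.85 ± 0.83 (adjusted p 0.050 by limma, above the threshold), and -1.92 with an adjusted p of 1.00 without the low-correlation arrays.

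With Xist signal as a covariate 7 members were called, 17.9% beside 19.2% of genes. Without array 2 or array 4 of the knock-down group 10 were, 25.6% beside 23.7% and 23.5% of genes. Rtp4, a chaperone with antiviral function, read 4.59, 10.70, 7.94, 11.17 and 4.92 against 10.13, 10.96, 11.07, 10.69 and 9.61 (-2.63, adjusted p 0.057 by limma). Zbp1, a sensor of Z-form nucleic acid that starts necroptosis, read 7.75, 11.22, 11.79, 10.63 and 4.89 against 11.64, 11.89, 10.71, 12.38 and 12.03 (-2.48, adjusted p 0.063). Usp18 stood on the other side, at 9.35, 6.39, 7.06, 6.99 and 14.33 against 6.06, 5.76, 6.06, 6.30 and 7.36 (2.51, adjusted p 0.066, and 0.51 without the low-correlation arrays). In these genes the extreme values came from arrays 1 and 5, the arrays of low correlation. On array 5 markers that define septa were low as well: the mean of the alveolar type 1 markers ran from 5.99 to 13.88 on the knock-down smoke septa arrays and from 13.55 to 13.88 in wild type with smoke. Of the other interferon-stimulated genes Slfn5 (-3.03), Plac8 (-2.52) and Psmb8 (-3.23) fell, with adjusted p of 0.0487, 0.0492 and 0.0492 by limma. None of these passed without the low-correlation arrays.

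The difference between the knock-down effect in septa and that in vessel was tested in the fit of all arrays. It was called for 1 of 39 members, 2.56% of the list beside 2.58% of all genes. Ifit3 differed by -4.06 ± 1.09 (adjusted p 0.036 by limma). Its septa values were 8.07, 10.30, 11.52, 12.03 and 9.02 in knock-down with smoke and 10.65, 11.51, 10.95, 11.00 and 12.28 in wild type. Without the low-correlation arrays the difference was -2.35 with an adjusted p of 0.36. In the other 8 comparisons no member differed between compartments by that test, at 0 to 7 members with an unadjusted p under 0.05.

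**Figure D5:**
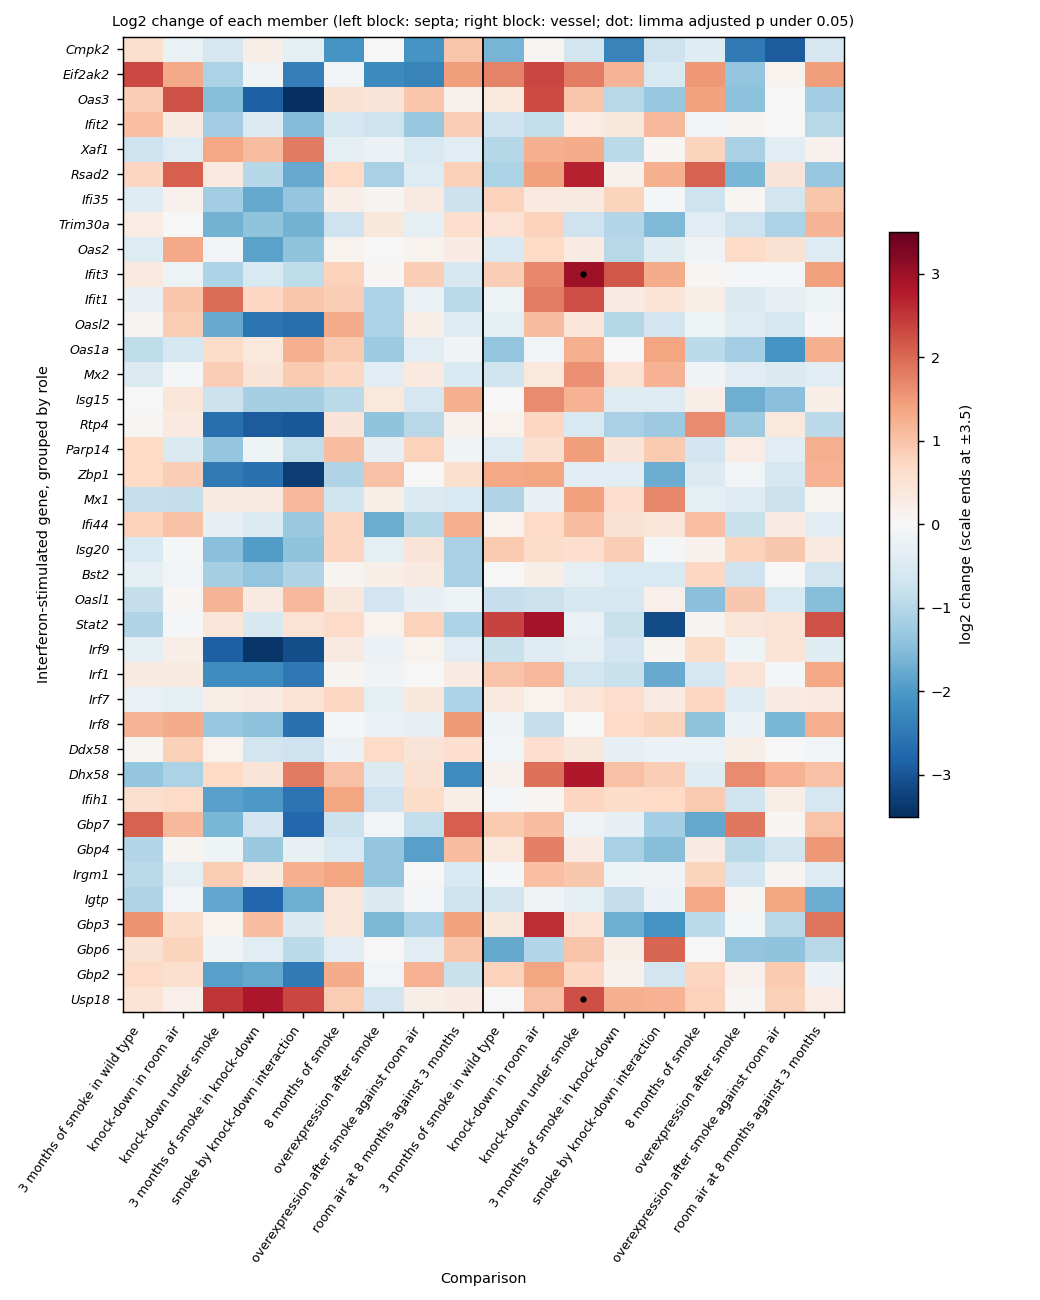
Log2 change of each of the 39 members (rows, by role) in 9 comparisons in septa and 9 in vessel (columns), on a colour scale from -3.5 to 3.5, with dots for an adjusted p under 0.05. The dots are Ifit3 and Usp18 in the vessel comparison of knock-down with wild type under smoke.

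Smoke for 3 months in wild type moved no member past the threshold. In septa 0.00465% of genes were called, and 3 members were higher at an unadjusted p under 0.05 (7.69% beside 3.49% of genes). Eif2ak2 read 11.39, 10.15, 8.75, 9.96 and 10.59 with smoke and 10.94, 9.53, 4.99, 8.58 and 5.21 in room air, so 2 of the 5 room air arrays were dim for it (2.32 ± 1.00, adjusted p 1.00 by limma). Gbp3 and Gbp7 differed by 1.58 ± 0.74 and 2.07 ± 0.97, also with adjusted p of 1.00. In vessel 0.144% of genes were called, and at an unadjusted p under 0.05 there were 2 members up and 2 down (10.3% beside 12.2%). Zbp1 read 11.84, 12.13, 11.73, 11.52 and 11.20 with smoke and 10.34, 9.78, 11.78, 9.96 and 9.84 in room air, where array 3 lay with the smoke arrays (1.34 ± 0.48, adjusted p 0.24 by limma). Stat2 read 9.80, 9.77, 8.996, 7.62 and 10.50 against 8.58, 4.73, 8.43, 4.51 and 8.57 (2.37 ± 0.87, adjusted p 0.25). Mx1 was lower with smoke without overlap, at 6.50, 6.34, 6.09, 5.79 and 5.66 in room air and 5.24, 4.72, 5.25, 5.00 and 4.84 with smoke (-1.06 ± 0.45, adjusted p 0.32). Of the other pathway genes, Ifngr2 (3.18) and Irf5 (2.69) were higher with smoke in vessel, with adjusted p of 0.12 and 0.10 by limma. In the fit without the low-correlation array these were 0.020 and 0.049.

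The labelled knock-down in room air was set against wild type in room air. In septa no member was called (0% of all genes), and 2 were higher at an unadjusted p under 0.05 (5.13% beside 2.27%). Rsad2, the antiviral enzyme viperin, read 8.57, 8.29, 9.35 and 8.49 in knock-down and 5.62, 6.96, 5.17, 8.88 and 6.23 in wild type, with 1 wild-type array inside the knock-down range (2.10 ± 0.91, adjusted p 1.00 by limma). Oas3 read 9.54, 8.41, 7.92 and 9.28 against 4.94, 8.93, 4.06, 7.67 and 7.22 (2.22 ± 0.99, adjusted p 1.00). Oas2 differed by 1.34 ± 0.78. In vessel 0.341% of genes and no member were called, and 4 members were higher at an unadjusted p under 0.05 (10.3% beside 14.8%). The change was above 0 in 31 of 39 members with a median of 0.73, against 0.01 over all genes. Gbp3 read 8.44, 7.55, 8.63 and 7.79 against 7.57, 5.29, 4.91, 4.78 and 5.03, where only wild-type array 1 reached the knock-down range (2.59 ± 0.71, adjusted p 0.10 by limma). Leaving out that array gave 1 called member, 2.56% beside 0.989% of genes. Stat2 read 10.59, 10.06, 8.46 and 10.36 in knock-down (2.91 ± 0.92, adjusted p 0.15) and Zbp1 differed by 1.39 ± 0.51 (adjusted p 0.20), both against the same wild-type values as in the smoke comparison. The 2 comparisons share those 5 room air arrays.

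Smoke in the animals labelled knock-down, and its difference from smoke in wild type, gave no call among the members. In septa the 2 comparisons called 0% and 0% of genes. At an unadjusted p under 0.05, smoke in the knock-down gave 1 member up and 12 down (33.3% beside 28.3%) and the interaction 1 up and 9 down (25.6% beside 18.8%). Irf9 differed by -3.41 ± 0.88 in the knock-down (adjusted p 0.063 by limma), Rtp4 by -2.92 ± 0.89 and Igtp, an immunity-related GTPase, by -2.78 ± 0.84 (adjusted p 0.067 each). Igtp read 5.00, 10.34, 7.31, 10.54 and 4.22 with smoke and 9.72, 10.14, 10.72 and 10.45 in room air, with arrays 1, 3 and 5 below the room air range. Without the low-correlation arrays the adjusted p of these 3 were 0.85 to 0.92. In the interaction Zbp1, Oas3 and Irf9 led with -3.33, -3.71 and -3.10 (adjusted p 0.23 each by limma). In vessel smoke in the knock-down called 0.18% of genes and the interaction 0.0225%. At an unadjusted p under 0.05, smoke in the knock-down gave 1 member up and 1 down (5.13% beside 9.66%) and the interaction 1 up and 3 down (10.3% beside 15.8%). Smallest in p were Gbp3 (-1.71), Ifit3 (2.16) and Cmpk2 (-2.35) for smoke, and Mx1 (1.68), Zbp1 (-1.75) and Stat2 (-3.14) for the interaction.

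After 8 months no difference between smoke and room air passed the test among the members. In septa 0.0233% of genes and no member were called, and at an unadjusted p under 0.05 there was again no member (0% of the list beside 7.23%). The change was above 0 in 26 of 39 members, with a median of 0.42 against 0.05 over all genes. Cmpk2 had the smallest p, at 7.25, 8.29, 6.87, 6.30 and 8.34 with smoke and 11.43, 9.64, 10.42, 8.99 and 6.96 in room air (-2.08 ± 1.04, adjusted p 0.70 by limma). Ifih1, the sensor MDA5 of long double-stranded RNA, and Irgm1 followed at 1.38 each. Of the other pathway genes, the kinase Tyk2 was lower in septa (-2.39, adjusted p 0.54 by limma, and 0.025 without the low-correlation arrays). In vessel 0% of genes were called, and no member reached an unadjusted p under 0.05 (beside 3.51%). Rtp4, Rsad2 and Igtp led there with 1.65, 2.07 and 1.34.

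The arrays labelled as overexpressing Fgf10 after smoke were compared with the smoke controls and with the room air controls. In septa no member was called in either (0% and 0.00465% of genes). Against the smoke controls 3 members were lower at an unadjusted p under 0.05 (7.69% beside 2.27%), and 12 of 39 changes were above 0 with a median of -0.29. Ifi44, an interferon-induced gene of RNA virus infection, read 5.84, 4.94, 5.48, 4.79 and 4.78 with overexpression and 6.05, 6.85, 5.61, 9.76 and 6.27 without (-1.74 ± 0.63, adjusted p 1.00 by limma). Eif2ak2 read 6.67, 8.44, 7.47, 6.84 and 5.51 against 9.90, 9.59, 8.33, 8.22 and 10.05, with 1 overexpression array inside the control range (-2.23 ± 1.00, adjusted p 1.00). Gbp3 differed by -1.57 ± 0.74. Against room air 1 member was lower (2.56% beside 2.38%), Eif2ak2 at -2.33 ± 1.00, followed by Cmpk2 at -2.06 and Ifit2 at -1.33. The same overexpression arrays enter both comparisons.

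In vessel no member was called for overexpression against smoke (0% of genes) or against room air (0.0404%). The unadjusted p was under 0.05 for 1 member, lower, in the first (2.56% beside 2.55%) and for 2, both lower, in the second (5.13% beside 4.39%). Cmpk2 was lower in each at that level: it read 5.92, 4.32, 4.60, 4.17 and 3.75 with overexpression, 10.58, 5.79, 7.64, 5.04 and 6.11 in smoke controls and 8.73, 6.89, 7.83, 5.93 and 7.93 in room air controls. All but 1 of the overexpression values lay under 5.32, at the dim end, and they did not overlap the room air values. The changes were -2.48 ± 1.19 (adjusted p 1.00 by limma) and -2.91 ± 1.19 (adjusted p 0.99). Gbp6 differed by -1.38 and -1.40, Dhx58 by 1.66 against smoke, and Oas1a, which also makes 2-5A, by -2.10 against room air.

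Room air controls at 8 months and wild type in room air at 3 months differ in time point, in the added week and in label, control against wild type. Xist was above 10 on 4 of 5 and on 2 of 5 of these arrays, in each compartment. These differences cannot be told apart. In septa 0.00465% of genes and no member were called. Unadjusted, 1 member was up and 1 down at p under 0.05 (5.13% beside 4.03%): Dhx58 (-2.21 ± 0.88) and Gbp7 (2.10 ± 0.97, adjusted p 1.00 by limma). Gbp7 read 10.74, 10.86, 10.53, 10.81 and 10.51 at 8 months and 8.79, 9.96, 3.90, 10.30 and 10.02 at 3 months, with array 3 far below the other 9. In vessel 0.88% of genes and no member were called, and 4 members were higher at an unadjusted p under 0.05 (10.3% beside 15.4%), Gbp3 (1.88), Stat2 (2.23), Zbp1 (1.22) and Irf1 (1.34), with adjusted p of 0.17 to 0.28 by limma. The first 3 were again set against the low wild-type room air arrays used above. Irf5, a factor that drives interferon and cytokine genes in myeloid cells, was 3.08 higher on the log2 scale (adjusted p 0.030 by limma). The call was lost with the mean of all its probes (2.16, adjusted p 0.11) and with array weights (adjusted p 0.071). It was also lost in the fit of the compared arrays alone (adjusted p 0.099), and without wild-type array 2 or 8-month array 2 or 3. Against the same wild-type room air arrays, Irf5 was also 2.69 higher in wild-type smoke vessel at 3 months (adjusted p 0.10 by limma). The receptor chain Ifngr2 was 2.88 higher at 8 months (adjusted p 0.10 by limma, and 0.019 without the low-correlation array).

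Within groups the members varied together only weakly. Over 741 pairs, the median correlation of deviations from the group mean was 0.15 on 32 septa arrays and 0.12 on 33 vessel arrays, without the low-correlation arrays, and 66.5% and 68.8% of the pairs were above 0. The highest pairs in septa were Trim30a with Gbp7 at 0.76 and Parp14 with Ifih1 at 0.73, and in vessel Parp14 with Irf9 at 0.63 and Mx2 with Bst2 at 0.62. All pairs share the arrays and their amplification, so these values describe the arrays and carry no test.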

How the data were processed

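RNA of laser-microdissected mouse lung septa and vessels was measured on 1-colour Agilent arrays, 62976 features each. Per the labels' protocols, RNA was purified with Qiagen RNeasy Micro, amplified with NuGEN Ovation PicoSL WTA V2 and labelled with Cy3. The log2 values deposited by the authors differed between arrays by at most 0.00352 at any percentile from 1 to 99, so they were already quantile normalised. The submitters' processing notes name limma without a version; the background correction is not stated in the labels. The number of arrays limits the precision.

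Features were named through the platform annotation and RefSeq (43941 with 1 symbol, 19035 with none; 44 missing values on 5 arrays). The brightest probe stood for a gene. Tested were genes with no missing value that exceeded percentile 40 on 4 or more arrays of a fit: 21502 in septa, 22268 in vessel and 23864 jointly. Groups followed the sample titles. Each compartment was fitted with limma 3.58.1 (R 4.3.3) as 7 group means, giving 9 comparisons, and all 14 groups for septa against vessel and for differences of effects, with Benjamini-Hochberg adjustment over all genes at 0.05, two-sided. The fit was tested on simulated data. The labels do not say whether replicates came from separate animals, beyond calling them biological.

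Members, lists and rules were chosen with earlier results of these data known. Values in every array are given for members past the threshold and otherwise for those with the smallest p. Alternatives were median centring, no filter, averaging all probes, array weights, a replicate block, leaving out the 3 low-correlation arrays, leaving out each array, an Xist covariate, the compared groups alone and the conflicting sample counted as knock-down. The same alternatives for the difference of effects were chosen after seeing the data.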

Additional observations from a re-analysis of the deposited data

Results flagged for a closer look

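Among 95 groups of values, 4 held 1 array far from the others of its group; chance alone sets apart about 1 group in 20. The interferon level of wild-type room air septa array 2 was 0.65, with the other 4 arrays between -0.31 and -0.12. Gbp3 on wild-type room air vessel array 1 read 7.57, with the others between 4.78 and 5.29. Gbp7 on wild-type room air septa array 3 read 3.90, with the others between 8.79 and 10.30. Zbp1 on wild-type room air vessel array 3 read 11.78, with the others between 9.78 and 10.34. The effect of the labelled knock-down under smoke on Ifit3 differed between compartments by the test of the difference itself, at -4.06 log2 units for septa minus vessel. Its adjusted p of 0.036 became 0.36 by limma without the low-correlation arrays.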

How the results depend on the processing

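Counts of called members stayed within 1.5 times the reported count in 744 of 787 alternatives and medians within the spread in 768 of 774. Single genes stayed on their side of the threshold in 2599 of 2861, with 222 weaker, 37 stronger and 3 reversed. Most reported counts were 0, and many alternatives left out an array outside the comparison, so these totals say little about stability. For knock-down under smoke in vessel, the count of 2 became 0 or 1 in many fits that left out 1 array. With array weights, 10 members were called for knock-down under smoke in vessel (25.6% beside 19.6% of genes, median 1.22). In septa 1 was called for smoke within the knock-down (2.56% beside 0.153% of genes, median -0.062). The weights gave 20 for septa against vessel (51.3% beside 43.6% of genes) and 0 for the difference of effects (0% beside 5.5%). The septa medians became 0.24 for knock-down under smoke and -0.094 for the interaction, and Rtp4 and Psmb8 turned to 0.24 and 0.13 in that first comparison. Without the low-correlation arrays those septa medians were -0.14 and -0.43 (interaction). There was then 1 call for knock-down under smoke in vessel (2.56% beside 6.8% of genes) and 0 for the difference of effects. With Xist as a covariate 7 members (17.9% beside 19.2% of genes) were called for knock-down under smoke and 8 (20.5% beside 15.5%) for smoke within the knock-down, in septa. The fit of the compared groups alone called 0 for knock-down under smoke in vessel, and the conflicting array counted as knock-down gave 0 for the difference of effects. The mean of all probes turned Zbp1 to -0.20 in the vessel room air comparison of ages. The causes were not tested.

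Across the groups of a compartment, same-numbered arrays were not alike. The median correlation of their deviations was 0.014 in septa over 99 pairs, 20 of them over 0.1, and -0.008 in vessel. Between septa and vessel, arrays of 1 group and number had a median of 0.038, 6 of 34 pairs over 0.1, and the same Xist side of 10 in 28 of 34. In each condition both compartments held equally many arrays above 10. Whether such pairs come from 1 animal was not settled, and the main fit counted their arrays as separate. With same-numbered arrays of a group as a block, septa against vessel again called 10 members. Within compartments, a replicate block gave 2 called members (5.13% beside 3.99% of genes) for knock-down under smoke in septa. No other count changed, and 5 of 85 gene calls moved, Ifit3 in vessel to an adjusted p of 0.051 by limma among them.

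Leaving out each array gave 0 to 10 members for knock-down under smoke in septa. Without knock-down smoke array 2 or 4 it gave 10 (25.6% beside 23.7% and 23.5% of genes). Without array 3 it gave 4 (10.3% beside 17.4%), and without 8-month smoke array 4 it gave 1 (2.56% beside 4.51%). For smoke within the knock-down in septa it gave 0 to 12. There were 11, 12 and 7 without arrays 2, 4 and 3 (28.2%, 30.8% and 17.9%, beside 22.1%, 22.7% and 14.7%). Leaving out 1 array gave 0 to 3 for knock-down under smoke in vessel. The count was 0 without knock-down smoke array 2 or 4 or wild-type smoke array 3, 4 or 5 (beside 1.35% to 6.35% of genes). For knock-down in room air in vessel it was 0 to 1 (2.56% beside 0.989% for the 1). Leaving out a replicate number gave 2 to 9 for septa against vessel, with 2 (5.13% beside 12.7% of genes) without number 2. It gave 0 to 1 for the difference of effects.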
